A study of Mus musculus with 8 samples.

Results

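The 10 genes examined here encode the main amino acid transporters of the kidney tubule epithelium: Slc3a1, Slc7a9, Slc6a19, Slc6a18, Slc7a7, Slc7a8, Slc3a2, Slc1a1, Slc38a3 and Slc16a10. They were chosen by symbol, with earlier results of these data known. All non-control probes whose transcript accession belonged to one of these symbols were taken. All 10 genes were found, through 12 of the 39429 probes on the array, and all 10 were among the 14473 genes that could be tested. Gene expression had been measured on 8 one-colour Agilent arrays with RNA from primary cultures of kidney proximal tubule cells of male mice aged 6 weeks (strain given as C57/BJ). Digested kidney cortex was strained, pelleted and grown to confluence with no sorting step, so that the cultures could hold other cortical cells. In serum-free medium, 4 samples received 1 µM GW4064, a synthetic agonist of the bile acid receptor FXR, and 4 received the vehicle DMSO, both for 24 h. Nothing in the labels tells whether a group's samples were separate animals or separate cultures. The p-values therefore reflect the spread among these 8 samples alone, and part or all of that spread may be technical.

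Proximal tubule cells take filtered amino acids back from the urine through carriers in the apical brush border and hand them to the blood through carriers in the basolateral membrane. Several of these carriers are heteromers, in which a glycoprotein heavy subunit brings a light subunit to the membrane and the light subunit carries the substrate. Slc3a1 is the heavy subunit of Slc7a9, which takes up cystine and basic amino acids, and loss of either in humans causes cystinuria. Slc3a2 is the heavy subunit of Slc7a7 and Slc7a8 on the basolateral side. Slc6a19, which is defective in human Hartnup disorder, and its relative Slc6a18 take up neutral amino acids together with sodium, and in the mouse kidney both need the partner protein collectrin, encoded by Cltrn. Slc1a1 takes up glutamate and aspartate.

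With GW4064, 4 of the 10 transporter genes rose and 2 fell, at an adjusted p under 0.05 in limma. Across all 14473 genes tested, 20.8% passed in either direction, 11.8% higher and 8.95% lower. Because the 10 genes were chosen with earlier results known, setting their count beside these shares is no test of the set. The rises were in the apical cystine pair Slc3a1 and Slc7a9, the apical glutamate carrier Slc1a1 and the basolateral light subunit Slc7a7. The falls were in the apical neutral carrier Slc6a18 and the basolateral light subunit Slc7a8. Slc6a19, Slc3a2, Slc38a3 and Slc16a10 did not pass. The median log2 fold change of the 10 genes was 0.05, and that of all genes tested was 0.01. The GW4064 and DMSO ranges were separate for 7 of the 10, which were the 6 called genes and Slc3a2, and for 26.2% of all genes tested.

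All 10 genes were well above background on all 8 arrays, and no probe on any array was saturated. Values are log2 of the processed signal minus the 75th percentile of the array, so a difference of 1 is a factor of 2, and levels of different genes are not compared because each probe binds in its own way. That percentile was 1412 ± 207 with GW4064 and 1626 ± 187 with DMSO (SD, n = 4 each). As a check that the agonist acted, Slc51a, a basolateral bile acid transporter subunit and a known FXR target, had a log2 fold change of 6.91 ± 0.16 (SE, n = 4 per group). The arrays lay on 2 slides, each with 2 GW4064 and 2 DMSO samples, with GW4064 always in the same positions of a slide, so position and treatment cannot be told apart. Replicate 3 of both groups stood apart for several of these genes, and the values and the changes without it are given below.

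**Figure D1:**
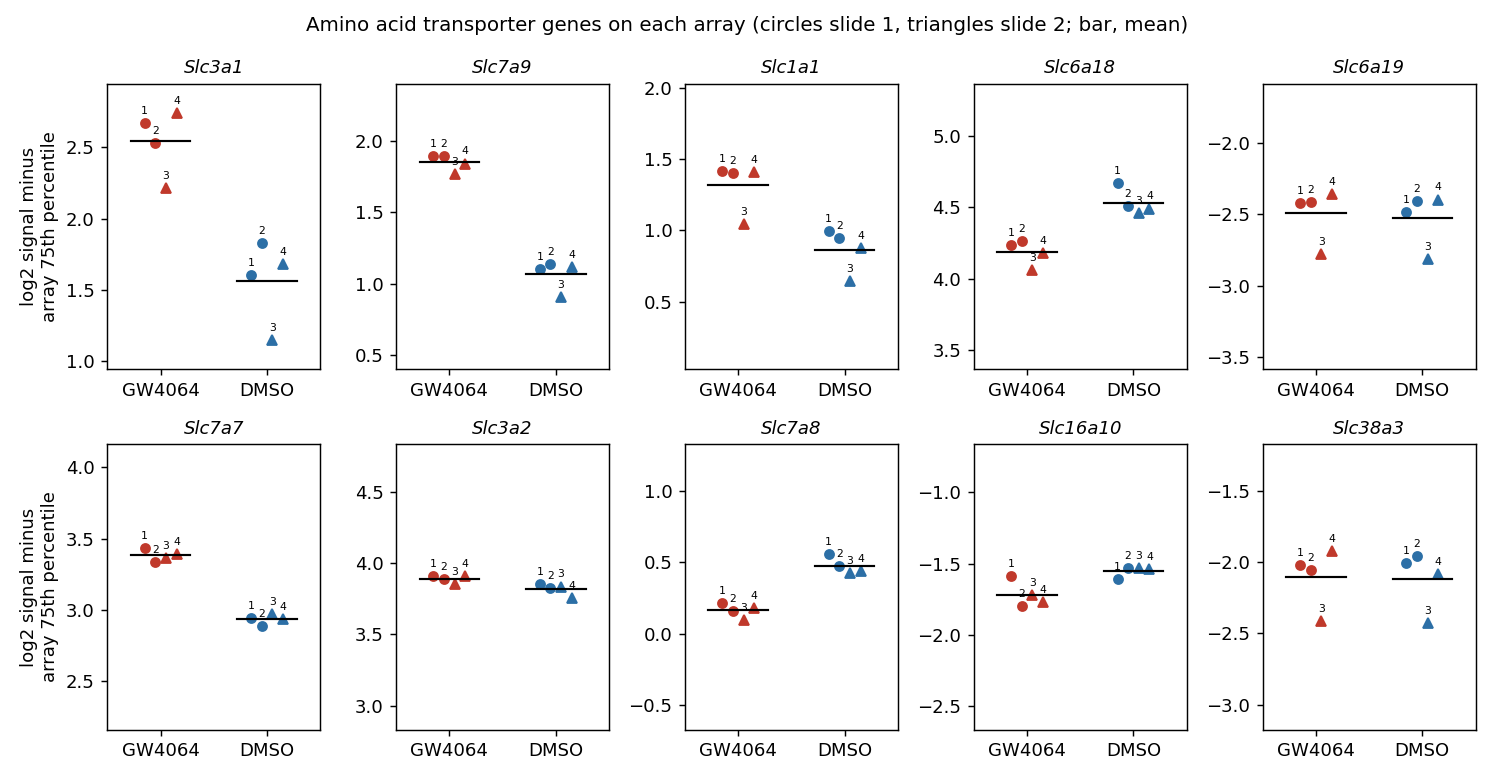
Log2 signal minus the array's 75th percentile for the 10 transporter genes on each of the 8 arrays, GW4064 on the left and DMSO on the right of each panel. Numbers are replicates, circles slide 1, triangles slide 2 and bars group means, and every vertical axis spans 2 log2 units; Slc3a1, Slc7a9, Slc1a1 and Slc7a7 lie higher with GW4064, Slc6a18 and Slc7a8 lower.

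The cystine transporter was the system with the largest change among the 10. Slc3a1 had log2 signals of 2.67, 2.53, 2.22 and 2.74 in the GW4064 samples, against 1.60, 1.83, 1.15 and 1.68 in the DMSO samples. Every GW4064 sample lay above every DMSO sample, and the lowest value of each group was that of replicate 3. The log2 fold change was 0.97 ± 0.16 (SE, n = 4 per group), a 1.97-fold rise (adjusted p = 0.00429 in limma). Only 1.08% of all genes tested had a log2 fold change as high. Its light subunit Slc7a9 had log2 signals of 1.90, 1.89, 1.77 and 1.84 in the GW4064 samples, against 1.10, 1.14, 0.91 and 1.12 in the DMSO samples. The groups did not overlap, and the gap between them was wide beside their spread of 0.06 (SD) with GW4064 and 0.11 with DMSO. Slc7a9 rose 1.72-fold (log2 fold change 0.79 ± 0.06 SE, adjusted p = 7.28e-05 in limma), a change that 1.57% of all genes reached. Without replicate 3 of both groups the log2 fold changes were 0.94 for Slc3a1 and 0.76 for Slc7a9.

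Because the heavy and the light subunit work as a pair, the difference of their log2 signals was taken within each array and compared between the groups. The log2 fold change of Slc7a9 was 0.19 below that of Slc3a1 (95% interval -0.52 to 0.14), and the groups overlapped (exact two-sided permutation test, p = 0.229). A different change of the 2 subunits was therefore not detectable with 4 arrays a group. This was 1 of 5 pairs compared, for which the smallest p that 70 assignments of the 8 arrays allow is 0.0286, and adjusted values below are over these 5 pairs.

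The sequences just before the start sites of these 2 genes are shown because the genes rose together, with that of Slc7a8, which fell, for comparison. They were taken from RefSeq on GRCm38.p6, 250 bases before the start site, at chr17:85028097-85028346 (plus strand) for Slc3a1, chr7:35448842-35449091 (plus strand) for Slc7a9 and chr14:54781887-54782136 (minus strand) for Slc7a8. Slc7a9 has 2 start sites in that table, whose windows overlap, and the upstream one is shown. The array design was built on mm9, and no position of the probes is given here. Capitals mark every match, on either strand, to AGGTCA, the core motif of nuclear receptors; to the inverted repeat that FXR binds with its partner RXR (AGGTCA, any base, TGACCT); or to CAAAGTCCA, a core of the HNF4 motif.
Slc3a1: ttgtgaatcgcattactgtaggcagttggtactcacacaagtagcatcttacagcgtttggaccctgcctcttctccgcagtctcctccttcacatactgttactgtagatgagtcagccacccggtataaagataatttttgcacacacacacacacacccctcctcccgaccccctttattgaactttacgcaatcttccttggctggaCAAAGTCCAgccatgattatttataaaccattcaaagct
Slc7a9: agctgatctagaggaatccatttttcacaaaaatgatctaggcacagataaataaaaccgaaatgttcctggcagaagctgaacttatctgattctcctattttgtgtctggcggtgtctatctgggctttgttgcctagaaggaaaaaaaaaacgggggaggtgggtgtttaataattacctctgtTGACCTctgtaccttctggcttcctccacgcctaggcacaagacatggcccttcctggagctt
Slc7a8: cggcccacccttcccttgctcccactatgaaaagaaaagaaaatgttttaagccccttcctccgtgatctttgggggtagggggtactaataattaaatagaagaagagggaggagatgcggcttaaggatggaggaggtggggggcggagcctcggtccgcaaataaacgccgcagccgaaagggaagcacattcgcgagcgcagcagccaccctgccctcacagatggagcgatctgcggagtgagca
The Slc3a1 window held CAAAGTCCA at position -39 from the start site, a motif present in 0.384% of the 32851 windows of this length in the table. The Slc7a9 window held AGGTCA, read on the opposite strand, at position -63, and 14.0% of all windows hold that motif. The Slc7a8 window held none of these motifs. Neither did the windows of Slc1a1, which rose, or of Slc3a2, Slc6a19 and Slc16a10, which did not pass. Slc7a7, which rose, held AGGTCA on the opposite strand at position -38 of a window, and its other windows held none of the motifs named above. GTTAAT, a half-site of the HNF1 motif, was also searched for. It was in another Slc7a7 window at position -86, in the Slc16a10 window at position -232 and in 6.43% of all windows. The FXR inverted repeat was in 0 of the 13 windows of the 8 transporter genes with an entry and in 0.00609% of all windows. A match is a description of these letters and not a measured binding site.

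Slc1a1 was the other apical carrier that rose. Its log2 signals were 1.42, 1.40, 1.05 and 1.41 in the GW4064 samples, against 0.99, 0.94, 0.64 and 0.87 in the DMSO samples. No GW4064 sample lay within the DMSO range, although replicate 3 with GW4064 exceeded the highest DMSO sample by little. Each array carried 10 spots of this probe, and the SD between them was 0.035 to 0.049, well below the spread between samples (SD 0.18 with GW4064 and 0.16 with DMSO). The gene rose 1.37-fold (log2 fold change 0.45 ± 0.11 SE, adjusted p = 0.0185 in limma). The call was lost without GW4064 replicate 1 (log2 fold change 0.42, adjusted p = 0.0542 in limma) and without GW4064 replicate 2 (0.43, adjusted p = 0.0525 in limma); without replicate 3 of both groups the change was 0.47.

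The apical neutral amino acid carriers moved unequally. Slc6a18 had log2 signals of 4.23, 4.27, 4.06 and 4.18 in the GW4064 samples, against 4.67, 4.51, 4.46 and 4.49 in the DMSO samples. All 4 GW4064 samples lay below all 4 DMSO samples. The gene fell by 0.35 ± 0.06 on the log2 scale (SE, 1.27-fold lower, adjusted p = 0.00644 in limma). Its second, dimmer probe for the same transcript gave a larger fall, with a log2 fold change of -0.58 ± 0.08 (SE, adjusted p = 0.00301 in limma over 24723 probes, of which 15.4% passed).

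Slc6a19 had log2 signals of -2.42, -2.41, -2.78 and -2.36 in the GW4064 samples, against -2.48, -2.41, -2.81 and -2.40 in the DMSO samples. The groups overlapped throughout, and in both of them replicate 3 lay well below the rest. The log2 fold change was 0.03 (95% interval -0.24 to 0.31, adjusted p = 0.876 in limma), which bounds a change in either direction without showing that there was none. Taken within each array, Slc6a18 changed by 0.38 less than Slc6a19 on the log2 scale (95% interval -0.65 to -0.11; difference -0.38 in GW4064 minus DMSO, exact permutation p = 0.0286, adjusted 0.0476). The 4 GW4064 arrays all lay below the 4 DMSO arrays in this difference.

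Collectrin, the partner these carriers share in the mouse kidney, was lower with GW4064. Cltrn had log2 signals of 1.90, 1.84, 1.70 and 2.11 in the GW4064 samples, against 2.72, 2.70, 2.27 and 2.65 in the DMSO samples. The groups did not overlap, and both kept probes of the gene passed in this direction. Cltrn fell by 0.70 ± 0.12 on the log2 scale (SE, 1.62-fold lower, adjusted p = 0.00500 in limma). Anpep, a brush border aminopeptidase that releases amino acids from peptides, rose 2.96-fold (log2 fold change 1.57 ± 0.14 SE, adjusted p = 0.000175 in limma).

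Among the other partner proteins, Arl6ip5, whose product restrains the Slc1a1 carrier in rodent cells, fell by 0.34 ± 0.08 on the log2 scale (SE, adjusted p = 0.0246 in limma). That call was lost when dim probes were kept (adjusted p = 0.0545 in limma), without DMSO replicate 2 (0.0503), without GW4064 replicate 1 (0.0613) or 4 (0.0561), and without replicate 3 of both groups (0.0557). Pdzk1, a scaffold of brush border carriers, stayed short of the threshold (log2 fold change 0.23 ± 0.08, adjusted p = 0.0747 in limma).

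On the basolateral side the light subunits went in opposite directions. Slc7a7, which exchanges basic for neutral amino acids and is defective in human lysinuric protein intolerance, had log2 signals of 3.44, 3.34, 3.37 and 3.39 in the GW4064 samples, against 2.95, 2.89, 2.97 and 2.93 in the DMSO samples. The lowest GW4064 sample lay far above the highest DMSO sample, and the spread within a group was only 0.04 (SD) in each. Slc7a7 rose 1.37-fold (log2 fold change 0.45 ± 0.04 SE, adjusted p = 0.000109 in limma). Slc7a8, which exchanges neutral amino acids, had log2 signals of 0.22, 0.16, 0.09 and 0.18 in the GW4064 samples, against 0.56, 0.47, 0.43 and 0.44 in the DMSO samples. All GW4064 samples lay below all DMSO samples. Slc7a8 was 1.24-fold lower (log2 fold change -0.31 ± 0.04 SE, adjusted p = 0.00203 in limma). The SD between its 10 spots on an array was 0.040 to 0.062.

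Their shared heavy subunit Slc3a2 had log2 signals of 3.91, 3.89, 3.86 and 3.91 in the GW4064 samples, against 3.85, 3.83, 3.84 and 3.75 in the DMSO samples. The groups did not overlap, but the distance between the nearest samples was minute. Its log2 fold change was 0.07 (95% interval -0.01 to 0.16) and did not pass (adjusted p = 0.200 in limma). Within arrays, Slc7a7 changed by 0.38 more than Slc3a2 (95% interval 0.30 to 0.45, exact permutation p = 0.0286, adjusted 0.0476). Slc7a8 changed by less than Slc3a2, with a difference of -0.38 (95% interval -0.45 to -0.31, exact permutation p = 0.0286, adjusted 0.0476). In both pairs the 4 GW4064 arrays lay apart from the 4 DMSO arrays, so each light subunit changed unequally to the heavy one.

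**Figure D2:**
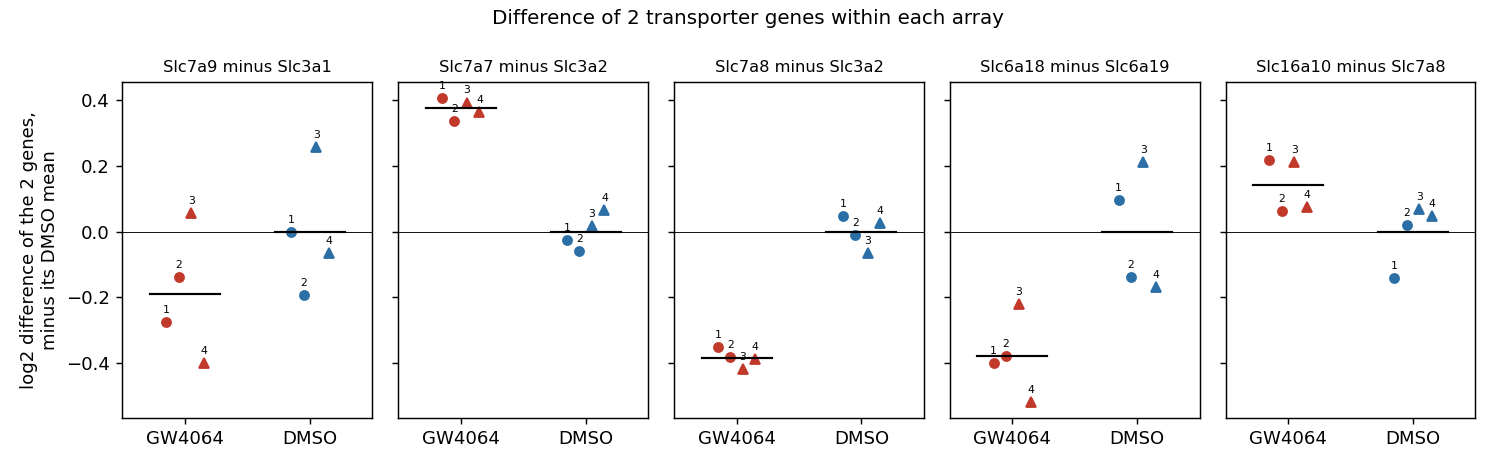
Difference of the log2 signals of 2 transporter genes within each array, minus its mean over the DMSO arrays, for 5 pairs; GW4064 is on the left and DMSO on the right, numbers are replicates, circles slide 1, triangles slide 2 and bars group means. Slc7a7 minus Slc3a2 lies higher with GW4064, Slc7a8 minus Slc3a2 and Slc6a18 minus Slc6a19 lie lower, and the groups overlap for Slc7a9 minus Slc3a1 and Slc16a10 minus Slc7a8.

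Slc16a10, which lets aromatic amino acids leave the cell down their gradient, lay close to the threshold. Its brighter probe had log2 signals of -1.59, -1.80, -1.72 and -1.77 in the GW4064 samples, against -1.61, -1.53, -1.53 and -1.54 in the DMSO samples. Of the 4 GW4064 samples 3 lay below all DMSO samples, and replicate 1 lay within their range. The log2 fold change was -0.17 ± 0.05 (SE) and did not pass (adjusted p = 0.0524 in limma). The dimmer probe, for another transcript of the gene, gave -0.20 ± 0.08 (adjusted p = 0.113 in limma over probes). The gene passed as lower in 5 of 22 alternative settings, with log2 fold changes of -0.21 to -0.11 over all 22. Within arrays its change exceeded that of Slc7a8 by 0.14 (95% interval -0.01 to 0.30), and the groups overlapped (exact permutation p = 0.0571, adjusted 0.0714).

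Slc38a3, a sodium-coupled basolateral glutamine carrier that rises in the kidney in acidosis, had log2 signals of -2.02, -2.05, -2.41 and -1.92 in the GW4064 samples, against -2.01, -1.96, -2.43 and -2.08 in the DMSO samples. The groups overlapped, and replicate 3 was again the low sample of each. The log2 fold change was 0.02 (95% interval -0.29 to 0.32, adjusted p = 0.945 in limma).

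**Figure D3:**
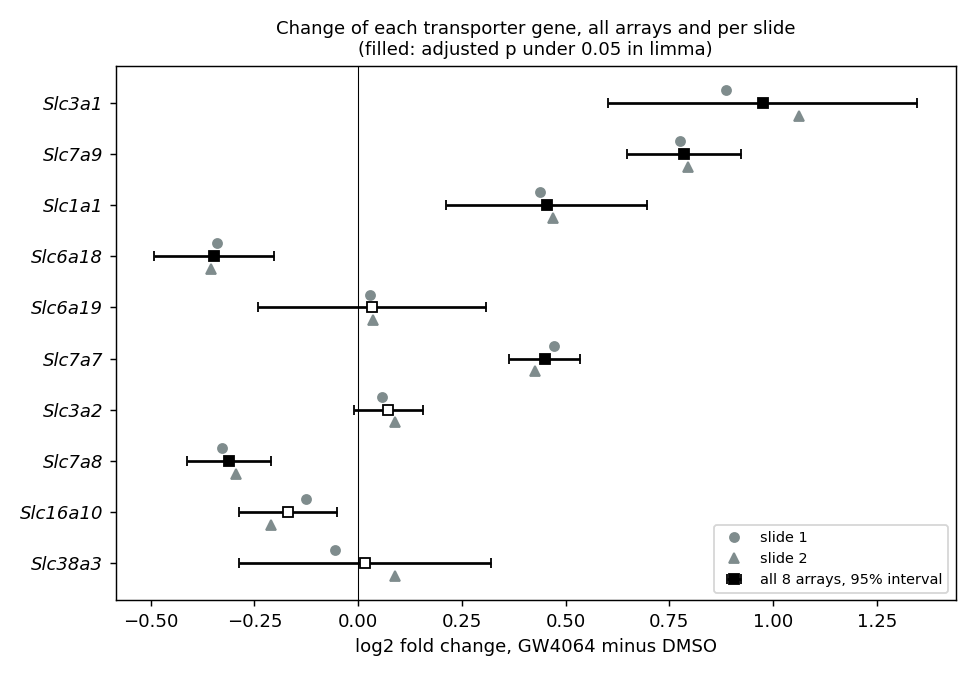
Log2 fold change (GW4064 minus DMSO) of the 10 transporter genes over all 8 arrays with its 95% interval (squares, filled where the adjusted p in limma was under 0.05), and on slide 1 (circles) and slide 2 (triangles) alone. The estimates of the 2 slides have the same sign for 9 of the 10 genes, Slc38a3 being the exception.

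Each slide held both treatments, and the changes were of like size on both. Slc3a1 changed by 0.89 on slide 1 and 1.06 on slide 2, and Slc7a9 by 0.78 and 0.80. Slc1a1 changed by 0.44 on slide 1 and 0.47 on slide 2, and Slc7a7 by 0.47 and 0.43. The falls on slide 1 and slide 2 were -0.34 and -0.35 for Slc6a18 and -0.33 and -0.29 for Slc7a8. With 2 arrays a group, slide 1 alone called 4 of the 10 genes (6.67% of all genes) and slide 2 alone called 0 (1.52% of all genes, limma). The 6 genes were called with the arrays of both slides together, so neither slide is an independent check of them.

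The transporters also varied together within a group. Replicate 3 was the lowest sample of both groups for 7 of the 10 genes, namely Slc3a1, Slc7a9, Slc1a1, Slc6a18, Slc6a19, Slc7a8 and Slc38a3, and for 10.2% of all genes tested. In replicate 3 Slc3a1 lay 0.33 below its GW4064 mean and 0.42 below its DMSO mean, and Slc38a3 lay 0.31 below each. Slc7a7, Slc3a2 and Slc16a10 stayed within 0.04 of their group means in replicate 3, though Slc3a2 was lowest there with GW4064. The dip of Slc7a8 was little larger, at 0.07 below its GW4064 mean and 0.05 below its DMSO mean. The mean of the proximal tubule marker list was also lowest in replicate 3, at 1.49 with GW4064 and 0.65 with DMSO, whereas the mean of the fibroblast and pericyte list was highest there, at -0.21 with GW4064 and -0.41 with DMSO. The part of these markers in the transporter values was not tested. Without replicate 3 of both groups the same 6 genes passed, and the log2 fold changes were 0.47 for Slc7a7, -0.33 for Slc6a18 and -0.30 for Slc7a8. Those of the genes that did not pass were then 0.03 for Slc6a19, 0.09 for Slc3a2, 0.02 for Slc38a3 and -0.16 for Slc16a10.

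**Figure D4:**
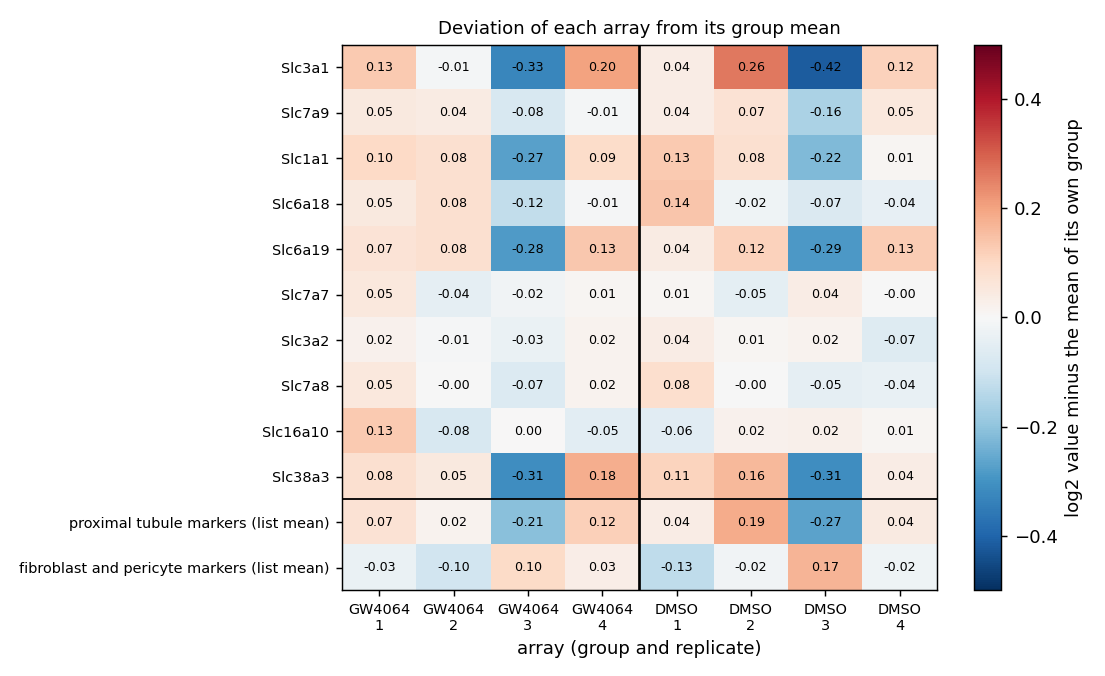
Log2 value of each transporter gene on each array minus the mean of its own group, with the means of the proximal tubule and the fibroblast and pericyte marker lists in the bottom rows; GW4064 arrays are on the left and DMSO arrays on the right. Replicate 3 of both groups is blue (below its group mean) for most of the genes and for the proximal tubule markers, and red for the fibroblast and pericyte markers.

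Markers of cell types moved in the same comparison. The marker lists were also chosen with earlier results of these data known, so their counts are no test of the lists. In bulk RNA, fewer cells of a type and less RNA per cell cannot be told apart. Of 17 proximal tubule markers tested, of 18 listed, 12 rose and 0 fell (against 11.8% and 8.95% of all genes), with a median log2 fold change of 0.85. The list mean was 1.49 to 1.82 in the GW4064 samples and 0.65 to 1.11 in the DMSO samples. The uptake carrier for organic anions Slc22a6 rose 4.05-fold, the creatine synthesis enzyme Gatm 3.87-fold and the protein uptake receptor Cubn 2.22-fold. Ggt1, which splits glutathione at the brush border, rose 1.82-fold. These markers show that the cultures expressed proximal tubule genes; of the 18, Slc22a8 was well above background on only 2 of 8 arrays.

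Genes of other cells were measured as well. Their counts stand beside 11.8% of all genes called higher and 8.95% called lower. Of 9 fibroblast and pericyte markers tested 4 rose (Tagln, Pdgfrb, Acta2 and Thy1), with list means of -0.40 to -0.21 in the GW4064 samples and -0.71 to -0.41 in the DMSO samples. The Thy1 groups overlapped, and its call was lost in 6 of the 8 fits that left out 1 array, with quantile normalization (adjusted p = 0.0683 in limma), median centring (0.0549) and the deposited table (0.0671), and with dim probes kept (0.0830). Of 7 endothelial markers 3 rose (Esam, Plvap and Cdh5), with list means of -1.42 to -1.33 with GW4064 and -1.83 to -1.65 with DMSO. Of 9 leukocyte and macrophage markers 4 rose (Csf1r, C1qb, Coro1a and Cd74), with list means of -2.14 to -1.99 with GW4064 and -2.39 to -2.13 with DMSO. Among the 5 that did not pass, Ptprc was lower (log2 fold change -0.90 ± 0.54 SE, adjusted p = 0.279 in limma) and the others had positive log2 fold changes. With the replicate number as a block, Coro1a (adjusted p = 0.0791 in limma) and Cd74 (0.0522) did not pass. Neither passed with dim probes kept (adjusted p = 0.0522 for Coro1a and 0.0546 for Cd74 in limma). Their calls were lost in 2 and 4 of the 8 fits that left out 1 array. Of 11 markers of other nephron segments and podocytes 2 fell (Umod and Slc12a3), with list means of -3.07 to -2.83 with GW4064 and -2.89 to -2.77 with DMSO. Neither fall passed after normexp background correction, where Umod changed by -0.39 (adjusted p = 0.0519 in limma) and Slc12a3 by -0.04, against -0.71 and -0.77 without it. Slc12a3 also did not pass in 6 of the 8 fits that left out 1 array. The defining markers Calb1, Lum and Tek were well above background on 0 of 8 arrays. The part of these cells in the transporter results was not tested.

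Other amino acid carriers changed at about the rate of the whole array. Of 35 listed, 26 were tested, 4 rose and 3 fell, which is 26.9% against 20.8% of all genes, and the median log2 fold change was -0.04. The 9 not tested were well above background on no array, among them Slc7a13, a light subunit that pairs with Slc3a1 in the mouse kidney. The 4 that rose include Slc6a20b, which entered the test only through the group where it was high. On probes well above background on all 8 arrays, which leave Slc6a20b out, 7 of 25 carriers passed, against 3015 of 13832 genes. Slc6a13, a carrier of GABA and taurine, rose 2.44-fold (log2 fold change 1.29 ± 0.10 SE, adjusted p = 7.92e-05 in limma). Its log2 signals were 1.59, 1.51, 1.23 and 1.52 in the GW4064 samples, against 0.27, 0.24, -0.06 and 0.25 in the DMSO samples, with no overlap.

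Slc6a20b, a relative of the proline carrier Slc6a20a, was well above background on 4 of 4 GW4064 arrays and 0 of 4 DMSO arrays. It thus entered the test through its GW4064 arrays alone, and no p is given for it. It was at least 2.43-fold higher with GW4064; the bound sets the GW4064 mean against, per DMSO array, the higher of the lowest signal well above background and the probe's own. After normexp background correction its log2 fold change was 0.53, which is under that bound. Slc6a20a changed by 0.06 ± 0.07 and did not pass (adjusted p = 0.566 in limma), and the 2 genes are so alike that a probe may bind both. The lysosomal carriers Slc38a7 and Slc36a1 rose 1.27-fold and 1.22-fold. Slc36a1 passed in only 1 of its 2 probes and not by their mean (adjusted p = 0.165 in limma).

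Slc7a6, the light subunit most closely related to Slc7a7, went the other way. Its log2 signals were -2.14, -2.05, -2.02 and -2.07 in the GW4064 samples, against -1.54, -1.51, -1.55 and -1.41 in the DMSO samples. It fell by 0.56 ± 0.05 on the log2 scale (SE, 1.48-fold lower, adjusted p = 9.76e-05 in limma). Slc6a15, a neutral amino acid carrier, fell by 0.42 ± 0.09 (adjusted p = 0.0129 in limma), but its change was -0.12 and did not pass after normexp background correction (adjusted p = 0.412 in limma). The third lower gene, named after its values were seen, was Slc7a12 (-0.45 ± 0.12, adjusted p = 0.0323 in limma).

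**Figure D5:**
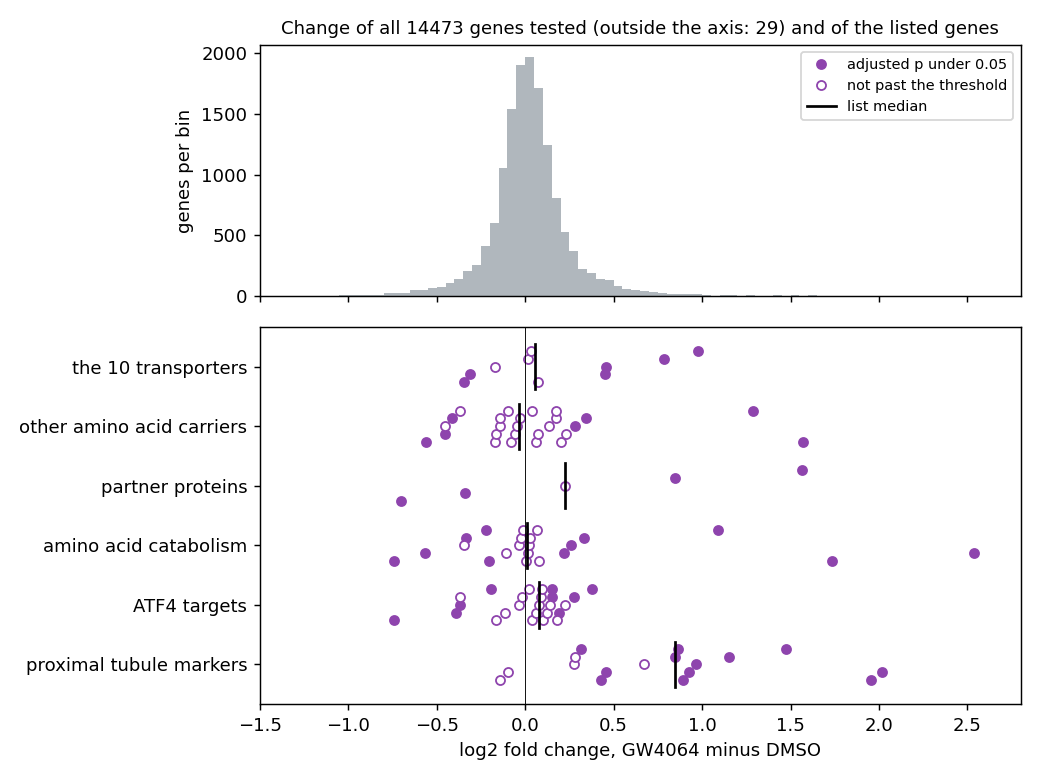
Log2 fold changes (GW4064 minus DMSO) of all 14473 genes tested (top, histogram) and of each gene in 6 lists (bottom; filled points passed an adjusted p of 0.05 in limma, open points did not, bars are list medians). The 10 transporters spread to both sides of 0 around a median of 0.05, whereas the proximal tubule markers lie mostly to the right, with a median of 0.85.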

How the data were processed

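RNA of 8 samples (4 GW4064, 4 DMSO) was hybridised to one-colour Agilent arrays. Spot intensity was deposited by the authors as background-subtracted by Agilent's Feature Extraction (version 10.7.3.1 per the file headers); limma is also named in the submitters' processing notes. A table of log2 values was deposited too, with its scale and centring unstated. All its columns had a median of 6.598 and correlated at 0.9996 or more with their own array, and it served as an alternative.

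Control spots (1377 of 44397) and spots marked as outliers (98 to 174 per array) were left out, spots of a probe were averaged as log2, and each array's 75th percentile over probes was subtracted. Probes well above background on at least 4 of 8 arrays were kept (24723 of 39429). Accessions were matched without versions to RefSeq on GRCm38.p6, for names only (27228 probes matched), and the brightest kept probe of a gene was used. The test was limma's (3.58.1, under R 4.3.3; lmFit, eBayes, Benjamini-Hochberg, threshold 0.05), with no covariate; the fit was tested on simulated data. Pairs of genes were compared by exact permutation over samples; their 95% intervals use the spread within groups. The number of arrays limits the precision.

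The members and the gene lists were chosen with earlier results of these data known. Named were the 10 transporters, all partner proteins, up to 6 called genes with the smallest p of each other list, called markers of other cells, and Slc51a. The alternatives were normexp background correction, quantile and median scaling, other filters, the mean of probes, blocks for replicate number and slide, each slide alone, the deposited table, weights for arrays, a robust fit with trended variance, and leaving out arrays. The deviations of same-numbered samples of the groups from their group means correlated across genes at -0.13, -0.03, 0.19 and -0.02 for replicates 1 to 4. Samples of unlike number reached 0.20 (GW4064 replicate 2 with DMSO replicate 1) and -0.20 (GW4064 replicate 3 with DMSO replicate 1). The value of replicate 3 thus lay within the range of unlike numbers, and the numbers were not taken to pair the samples. Some genes that this rule names are not reported here. Probe sequences were not used here.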

Additional observations from a re-analysis of the deposited data

Results flagged for a closer look

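Of 110 groups of 4 arrays examined over the named genes, 10 had 1 array far from the other 3, where chance gives about 1 in 20; 4 of the 10 lay among the 20 groups of the transporters. Replicate 3 was the array apart in 8 of the 10. With GW4064, replicate 3 was low for Slc1a1 (1.05, against 1.40 to 1.42 in the others) and Slc6a19 (-2.78, against -2.42 to -2.36) and high for the smooth muscle gene Tagln (5.64, against 5.31 to 5.35). With DMSO, replicate 3 was low for Slc7a9 (0.91, against 1.10 to 1.14), Slc6a13 (-0.063, against 0.24 to 0.27), Cltrn (2.27, against 2.65 to 2.72) and the lysine-degrading enzyme Aass (-1.13, against -0.78 to -0.73), and high for Tagln (5.11, against 4.79 to 4.81). Slc16a10 was low in DMSO replicate 1 (-1.61, against -1.54 to -1.53), and Pdgfrb was high in GW4064 replicate 4 (-1.29, against -1.46 to -1.44). Values are on the log2 scale after subtraction of each array's 75th percentile.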

How the results depend on the processing

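The 6 called transporters kept their direction in all 22 alternatives and passed in all of them that had at least 6 arrays, except Slc1a1 without GW4064 replicate 1 or 2. The other losses came with 1 slide alone, which leaves 2 arrays a group. On slide 1 alone Slc6a18 (-0.34) and Slc7a8 (-0.33) did not pass, so that 0 of the 10 genes fell, and 966 genes passed in all. On slide 2 alone Slc3a1 (1.06), Slc7a9 (0.80), Slc6a18 (-0.35), Slc7a7 (0.43), Slc7a8 (-0.29) and Slc1a1 (0.47) did not pass, so that 0 of the 10 genes rose or fell, and 220 genes passed in all. Slc16a10 passed with quantile normalization (-0.19), on probes well above background on all 8 arrays (-0.17), by the mean of its probes (-0.18), in the deposited log2 table (-0.19) and without GW4064 replicate 1 (-0.21); the cause was not tested. Slc38a3, not called in any alternative, changed sign with quantile normalization (-0.00184), on slide 1 alone (-0.056) and without DMSO replicate 3 (-0.087), GW4064 replicate 1 (-0.01) or GW4064 replicate 4 (-0.04). Slc6a19, also never called, changed sign without DMSO replicate 3 (-0.063) or GW4064 replicate 4 (-0.01).

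Leaving out each array in turn gave 2076 to 2822 genes in all, 5 to 6 transporters called, 3 to 4 higher and 2 to 3 lower. The log2 fold changes then ran from 0.84 to 1.08 for Slc3a1, 0.73 to 0.81 for Slc7a9, 0.38 to 0.54 for Slc1a1, 0.43 to 0.46 for Slc7a7, -0.37 to -0.30 for Slc6a18, -0.33 to -0.28 for Slc7a8, -0.21 to -0.14 for Slc16a10, 0.05 to 0.09 for Slc3a2, -0.063 to 0.13 for Slc6a19 and -0.087 to 0.12 for Slc38a3. With replicate number as a block 2322 genes passed, against 3006 without it, and it changed no call among the transporters. Median centring gave 2292 genes, no filter 2161 and array weights 3677.

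Normexp as planned called 120 genes. DMSO replicate 3, which held a spot with a local background of 53526 (array median 30), was then compressed. Its log2 range from the 5th to the 75th percentile was 0.98, against 4.325 to 4.809 on the other arrays. The part of that single spot was not tested. With all outlying backgrounds on every array set to the array median, an alternative chosen after seeing the data, 2161 genes passed. Leaving out replicate 3 of both groups was also chosen after seeing the data (2298 genes). Of the 45 other named genes 42 passed, and 31 of these passed in every alternative with 6 or more arrays; none of the 45 changed sign in any alternative. The replicate block ended the calls of Psat1, Atf3, Sesn2, Coro1a and Cd74 among them.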

Other observations

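Enzymes that break down amino acids changed in both directions. Of 22 tested, 6 rose and 5 fell (against 20.8% called among all genes), with a median log2 fold change of 0.01. Hgd, which opens the ring of homogentisate in tyrosine breakdown, rose 5.80-fold (log2 fold change 2.54 ± 0.20 SE, adjusted p = 7.92e-05 in limma). Its log2 signals were -1.33, -1.35, -1.72 and -1.44 in the GW4064 samples, against -4.00, -3.53, -4.55 and -3.89 in the DMSO samples. Prodh2, which starts the breakdown of hydroxyproline, rose 3.33-fold (1.74 ± 0.06, adjusted p = 1.11e-06 in limma), and Gldc, a subunit of the glycine cleavage system, rose 2.13-fold (1.09 ± 0.05, adjusted p = 2.98e-06 in limma). Oat, which turns ornithine over, was 1.67-fold lower (-0.74 ± 0.04, adjusted p = 1.74e-05 in limma). Aass was 1.48-fold lower, and Cbs, which makes cystathionine from homocysteine, 1.26-fold lower.

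Genes that respond to amino acid shortage through the transcription factor ATF4 changed in both directions as well. Of 25 tested, 5 rose and 4 fell (against 20.8% called among all genes), with a median log2 fold change of 0.08 and a list mean of 1.83 to 1.90 in the GW4064 samples and 1.86 to 1.92 in the DMSO samples. Gpt2, an alanine aminotransferase, rose 1.30-fold (0.38 ± 0.06, adjusted p = 0.00428 in limma). The serine synthesis genes Phgdh and Psat1 were 1.29-fold and 1.14-fold lower (adjusted p = 0.00590 and 0.0116 in limma), and the third, Psph, did not pass (log2 fold change -0.16, adjusted p = 0.100 in limma). Psat1 lost its call with the replicate number as a block (adjusted p = 0.0543 in limma), after normexp background correction (0.0612) and without replicate 3 of both groups (0.0565). Ddit4, named after its values were seen, had the largest change of the list (-0.74 ± 0.21, adjusted p = 0.0412 in limma). The change of Atf4 itself, 0.12 on the log2 scale, did not pass (adjusted p = 0.207 in limma). Among the 16 genes that did not pass were also Asns (0.09, adjusted p = 0.404 in limma), Chac1 (0.08, 0.655), Trib3 (0.22, 0.299) and Ddit3 (0.10, 0.127).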
